A study of Mus musculus with 6 samples.

Results

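Transcripts of the insulin-like growth factor (IGF) system were described in the inner ear of wild-type mice and of mice mutant for Pou3f4. The 10 genes were taken by symbol from a deposited count table of 55401 genes: the ligands Igf1 and Igf2, the receptors Igf1r and Igf2r, and the binding proteins Igfbp2, Igfbp3, Igfbp4, Igfbp5, Igfbp6 and Igfbp7. All 10 passed the filter on low counts, which left 19687 genes for the test. Bulk RNA sequencing gave 3 wild-type libraries (genotype WT) and 3 libraries labelled Pou3f4y/- (KO), a genotype of the X-linked transcription factor gene Pou3f4. The labels call the material inner ear cells, with all the cells as the cell type, and also carry "interstitial cells" under cell line. They give no age, strain, dissection or deleted part of the gene, and nothing in them ties a library to an animal of its own. The p-values therefore cover the spread among these libraries alone, which may be technical in part.

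IGF1 and IGF2 are secreted growth factors that signal through the tyrosine kinase receptor encoded by Igf1r. The Igf2r product, which is also the cation-independent mannose 6-phosphate receptor, takes up IGF2 and sends it to lysosomes. Secreted binding proteins hold most extracellular IGF, prolong its life and keep it from, or deliver it to, the receptor, and proteases release it by cleaving them. In the ear, IGF1 is needed for the growth and survival of cochlear neurons, and its loss causes deafness in mice and people. Igf2 is an imprinted gene of embryonic and early postnatal growth.

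Promoter sequences are shown for 4 members: Igfbp6 and Igfbp3, whose KO libraries all lay below the WT libraries, and Igf2 and Igfbp2, which were called higher in KO when 1 WT library was left out. Each runs 5′ to 3′ on the strand of the gene, from 250 bases before to 50 bases after a RefSeq start site on GRCm38.p6, the assembly of mm10. All 10 members matched the RefSeq promoter table, with 14 start sites in all. Capitals mark matches on either strand to TATAAA, the TATA box, or to the GC box, whose letters are GGGCGG. No match of one overlaps a match of the other in these sequences.
Igfbp6 (chr15:102143936-102144235, plus strand): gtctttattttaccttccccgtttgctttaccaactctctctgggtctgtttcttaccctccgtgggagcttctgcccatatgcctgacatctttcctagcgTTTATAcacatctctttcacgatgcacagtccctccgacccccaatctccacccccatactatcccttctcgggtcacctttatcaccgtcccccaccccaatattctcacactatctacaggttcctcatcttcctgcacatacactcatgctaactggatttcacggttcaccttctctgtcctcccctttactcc
Igfbp3 (chr11:7213874-7214173, minus strand): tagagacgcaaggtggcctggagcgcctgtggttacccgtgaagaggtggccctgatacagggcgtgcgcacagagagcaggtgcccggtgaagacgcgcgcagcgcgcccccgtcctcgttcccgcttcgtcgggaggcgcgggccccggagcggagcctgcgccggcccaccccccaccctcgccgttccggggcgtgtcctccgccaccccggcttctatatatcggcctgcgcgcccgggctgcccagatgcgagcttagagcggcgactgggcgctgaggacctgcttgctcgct
Igf2 (chr7:142657447-142657746, minus strand, the start nearest the 3′ end of 4 listed): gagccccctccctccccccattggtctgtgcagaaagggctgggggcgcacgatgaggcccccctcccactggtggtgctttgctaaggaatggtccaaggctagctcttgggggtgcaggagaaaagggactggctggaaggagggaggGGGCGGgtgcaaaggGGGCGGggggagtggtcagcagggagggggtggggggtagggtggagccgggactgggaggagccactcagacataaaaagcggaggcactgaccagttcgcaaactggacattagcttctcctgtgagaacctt
Igfbp2 (chr1:72824230-72824529, plus strand, the upstream of 2 listed starts): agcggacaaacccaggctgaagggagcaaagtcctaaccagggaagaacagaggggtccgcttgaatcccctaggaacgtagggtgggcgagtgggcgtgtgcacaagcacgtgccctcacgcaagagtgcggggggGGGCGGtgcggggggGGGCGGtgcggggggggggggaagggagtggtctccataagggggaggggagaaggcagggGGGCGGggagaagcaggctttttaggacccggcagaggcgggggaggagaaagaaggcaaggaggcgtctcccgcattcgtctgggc

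The Igfbp6 promoter had 49.7% G and C with 8 CpG sites, close to the median of 32851 RefSeq promoters (52.7% and 7 sites), and its start lies 176 bases before that of the deposited gene model. The Igfbp3 promoter had 71.7% G and C with 37 CpG sites. Those of Igf2 and Igfbp2 had 63.3% and 67.0% G and C, with 2 and 3 GC boxes. GC boxes stood in 6 of the 14 member promoters and in 35.7% of all promoters. Matches to TATAAA stood in 2 of 14 (Igfbp4 and Igfbp6) and in 13.6%, and only these exact letters were counted. The Igfbp4 match lay 28 bases before the start on the forward strand. That of Igfbp6 lay 148 bases before the start on the reverse strand. The octamer ATGCAAAT, the classic POU-domain motif, was searched on both strands and matched 0 of the 14 and 1.74% of all promoters. These matches describe letters in 1 window and say nothing of binding.

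Total counts per library ranged from 18409409 to 23323953. A count of 0 allowed up to 3 counts, or 0.131 to 0.168 CPM (counts divided by the TMM-scaled library size, times 1e+06), a limit of counting error only. Pou3f4 held 1044 to 2233 counts in WT and 28 to 45 in KO, lower in every KO library. The Pou3f4 level was 58.3 CPM for WT replicate 1, below the 112 and 114 CPM of the other WT libraries. Both genotypes had 2 libraries with Xist reads (WT replicates 1 and 2, KO replicates 2 and 3) and 1 almost without them. Xist, made from the inactive X chromosome, is a transcript of female cells, so the 2 KO libraries that hold it go against the hemizygous male genotype that Pou3f4y/- denotes. Inner ear markers were present in every library: the summed level of 8 otic fibrocyte genes was 1594 to 3266 CPM for WT and 1304 to 1358 CPM in KO, and that of 10 supporting and hair cell genes was 289 to 382 and 314 to 370 CPM. No gene on the marker lists had 0 counts in all libraries.

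WT replicate 1 stood apart for these genes. It was the highest of the 3 WT libraries for 10 of 10 members, where 39.7% of all genes had that library on top, although Igfbp5 was an exception with upper-quartile scaling or library totals alone. It was the highest of all 6 libraries for 9 of 10 members, against 28.8% of all genes. The median coefficient of variation of the members was 29.6% in WT and 5.21% in KO, against 17.3% and 7.69% over all genes. The SD was smaller in KO for 9 of 10 members (81.1% of all genes), and WT replicate 2 was the lowest WT library for 6 (30.5%). Without WT replicate 1, edgeR called 3 members: Igf2 and Igfbp2 were higher in KO and Igfbp6 lower. In that fit 9.06% of 20019 genes passed, 3.6% higher and 5.46% lower, and the median change of the members was −0.02. The groups did not overlap for 47% of all genes when that library was left out. The closer look at this library was chosen after the values were seen. As it was the highest WT library for every member, leaving it out lowers their WT means, and all their fitted changes rose. That upward shift follows from the choice of library. Without WT replicate 2 edgeR called Igfbp6 alone, and without WT replicate 3 it called 0 members.

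No member of the IGF system passed the threshold of an adjusted p under 0.05 in the edgeR comparison of the genotypes, against 78 of 19687 genes in all (0.396%, with 0.213% higher and 0.183% lower). At an unadjusted p under 0.05, 2 members were lower in KO, Igfbp6 and Igfbp3, and 19.6% of all genes passed (8.71% higher and 10.9% lower). DESeq2 called 1 member, Igfbp6, among 9.03% of its genes, and limma-voom called 0. The median log2 fold change of the 10 members was −0.20, against −0.01 over all genes tested, and 7 of the 10 fitted changes lay below 0, against 51% of all genes. The libraries of the groups did not overlap for Igfbp6 and Igfbp3, 2 of 10 members, where 27.7% of all genes had no overlap (15% higher and 12.7% lower in KO). The KO mean lay inside the WT range for 6 of the 10, against 53.7% of all genes.

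**Figure D1:**
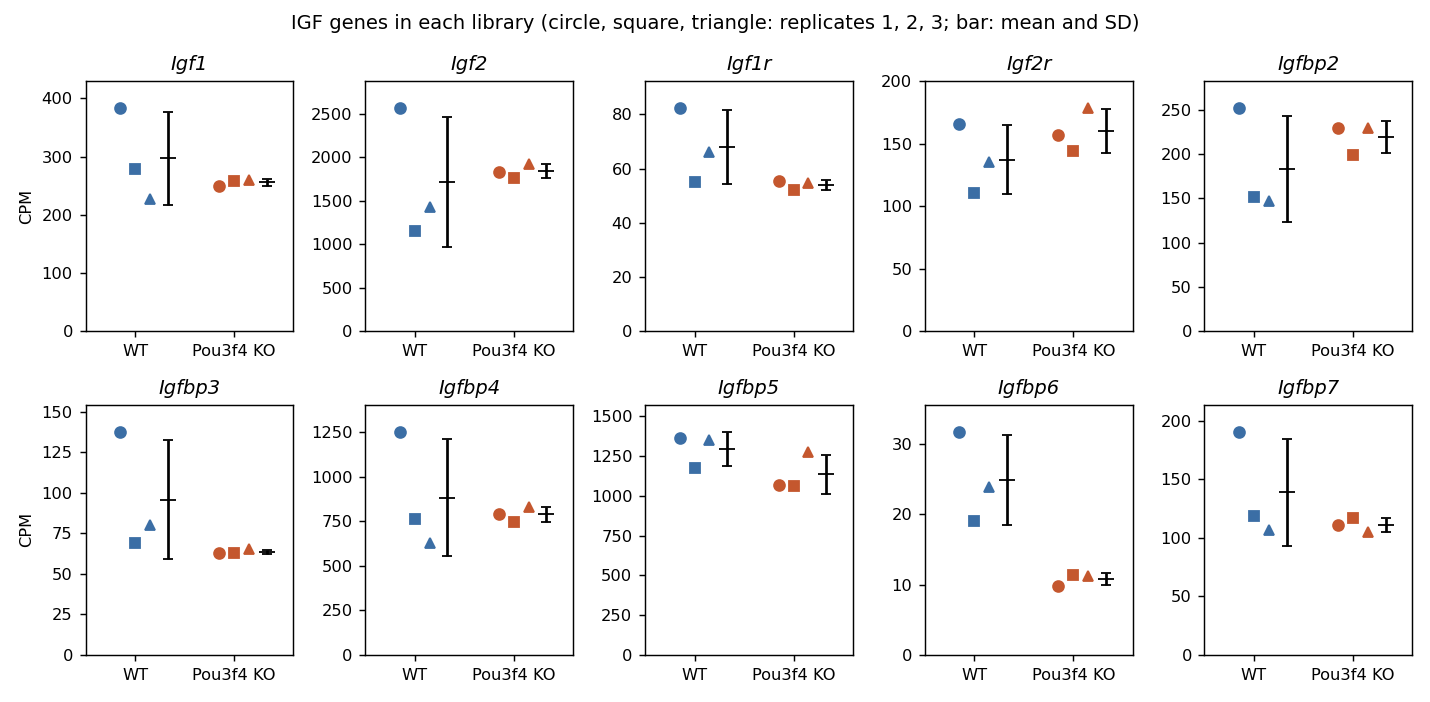
Level of each IGF gene in CPM (vertical axis, from 0) in the 3 WT and 3 KO libraries, with symbols for the replicate number and a bar for the mean and SD. WT replicate 1 (circle) is the highest WT library in all 10 panels, and only Igfbp3 and Igfbp6 have KO libraries that all lie below the WT libraries.

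Markers of other cells also set WT replicate 1 apart. The summed level of 10 pericyte and smooth muscle genes was 1346 CPM there, against 712 and 799 CPM in the other WT libraries and 664 to 685 CPM in KO, and 9 of the 10 genes were highest of all libraries there. The 10 fibroblast and meningeal genes summed to 12435 CPM in WT replicate 1 and to 3752 to 4659 CPM in the other 5 libraries. Most of that sum was type III collagen, Col3a1, at 8496 CPM against 1554 to 1737 CPM. Of these 10 genes, 6 were highest of all libraries in WT replicate 1 and 2 were lowest there. Of 10 endothelial genes (769 CPM summed, against 550 to 647 CPM), 6 were highest and 1 was lowest there. Over all genes, 28.8% were highest in that library. The otic fibrocyte and Schwann cell sums were lower there, at 1594 and 4464 CPM, than in WT replicates 2 and 3, at 3052 to 3266 and 7540 to 8458 CPM. Erythroid genes summed to 2044, 8049 and 7124 CPM in WT replicates 1 to 3 and to 2183 to 3504 CPM in KO. Melanocyte genes summed to 109, 168 and 161 CPM in WT and to 166 to 194 CPM in KO. WT replicate 1 was the lowest of all libraries for 8 of 10 erythroid and 7 of 10 melanocyte genes. Skeletal muscle genes summed to 5838, 117 and 9137 CPM in WT replicates 1 to 3 and to 24.6 to 706 CPM in KO, so muscle did not single out WT replicate 1. The part of these cells in the IGF values was not tested. In bulk tissue, fewer cells of a type and less RNA per cell cannot be told apart.

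**Figure D2:**
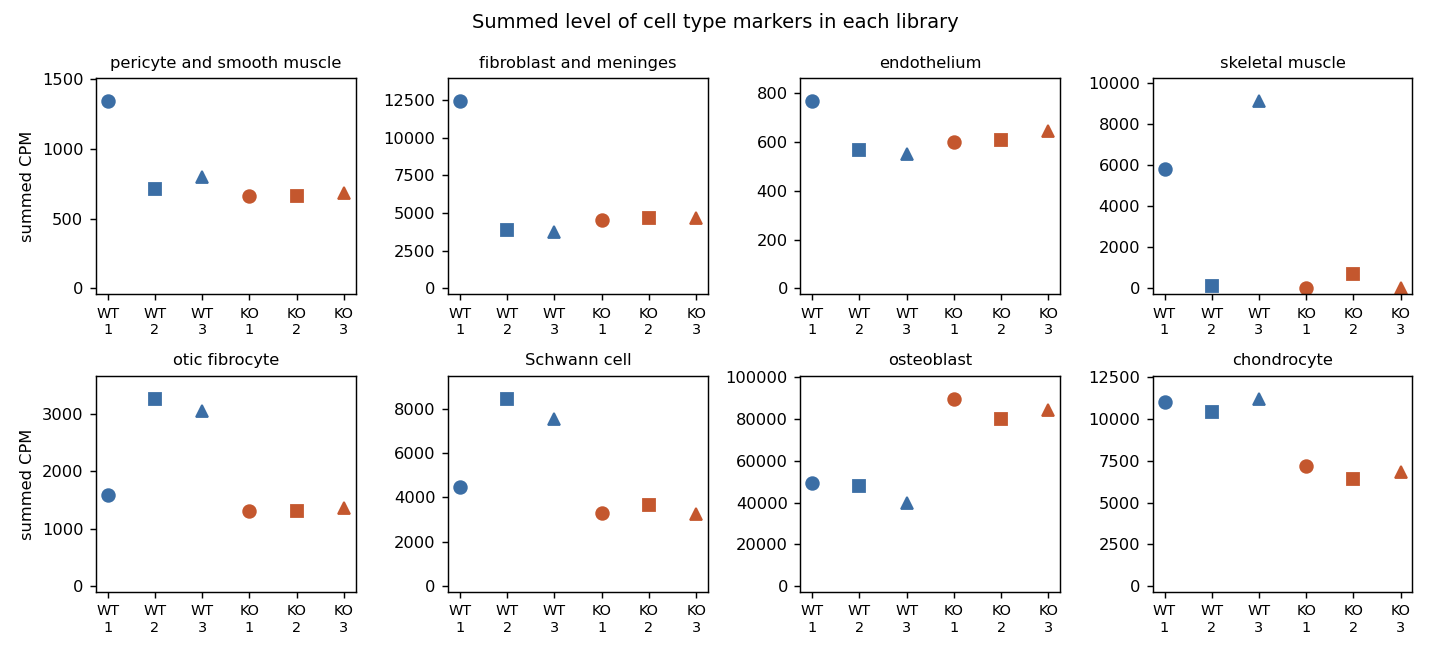
Summed CPM of 8 fixed lists of cell type markers (vertical axis, from 0) in each of the 6 libraries. Pericyte, fibroblast and endothelial sums are highest in WT replicate 1. Osteoblast sums, which are mostly Col1a1 and Col1a2, are higher in all KO libraries, and chondrocyte sums are lower in all KO libraries.

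Igf2 was the most abundant member. Its level was 2567, 1148 and 1431 CPM in WT replicates 1 to 3 and 1830, 1766 and 1920 CPM in KO replicates 1 to 3. The KO libraries lay close together, inside the range of WT, above WT replicates 2 and 3 and below WT replicate 1. The means were 1715 ± 751 CPM for WT and 1839 ± 77.7 CPM for KO (SD, n = 3 each). The fitted log2 fold change was 0.10 (SE 0.28, adjusted p = 0.872, edgeR). Without WT replicate 1 the change was 0.50 (SE 0.10, adjusted p = 0.0395, edgeR), and without WT replicate 2 or 3 it was −0.12 or −0.01.

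Reads of Igf2 (ENSMUSG00000048583, mm10 chromosome 7, 142650766 to 142666816, minus strand) cannot be separated from those of Gm49394, a protein-coding gene model on the same strand whose exons cover 62.8% of the Igf2 exons. Gm49394 held 213593 counts over the 6 libraries and Igf2 214191, nearly the same number. The excess of Igf2 over Gm49394 was 29 to 164 counts per library, or 0.132% to 0.462% of the Igf2 counts. The antisense gene Igf2os overlaps 1.7% of the Igf2 exons and held 1394 counts in all. Leaving Gm49394 out of the table kept the Igf2 counts as they were. The Igf2 change, again 0.10, therefore could not show an effect of the shared reads. The insulin gene Ins2, 11.8 kb away, held at most 1 count in any library.

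H19, an imprinted non-coding RNA gene 72.6 kb from Igf2, is expressed from the maternal chromosome while Igf2 is expressed from the paternal one, and both use shared enhancers. H19 stood at 4170, 702 and 3532 CPM in WT replicates 1 to 3 and at 1280, 1509 and 1372 CPM in KO. Its high libraries, WT replicates 1 and 3, were those with the high skeletal muscle sums, whereas Igf2 was high only in the first of them. The ratio of H19 counts to Igf2 counts was 1.62, 0.612 and 2.47 in WT and 0.70, 0.855 and 0.715 in KO. The fitted change of H19 was −1.01 (SE 0.57, adjusted p = 0.372, edgeR), and the role of muscle in it was not tested.

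Igf1 (ENSMUSG00000020053, chromosome 10, 87858265 to 87937042, plus strand) stood at 384, 279 and 228 CPM in the WT libraries and at 249, 258 and 261 CPM in KO. The KO libraries lay between WT replicates 2 and 3. The log2 fold change was −0.21 (SE 0.18, adjusted p = 0.553, edgeR) and became 0.00 (SE 0.09, adjusted p = 0.986, edgeR) without WT replicate 1. Igf1 is made by many mesenchymal cells and macrophages. The fibroblast and pericyte sums given above were highest in WT replicate 1, as Igf1 was, and the 10 macrophage markers summed to 627 CPM there, 882 and 901 CPM in WT replicates 2 and 3, and 1110 to 1211 CPM in KO. Their part in the Igf1 values was not tested. Per kilobase of exon, the Igf2 level was 11.6, 7.13 and 10.9 times that of Igf1 in WT and 12.7, 11.8 and 12.8 times in KO. The KO ratios were all above the WT ratios, a comparison chosen after the values were seen and not tested.

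Among the receptors, Igf1r (ENSMUSG00000005533, chromosome 7, 67952827 to 68233668, plus strand) stood at 82.4, 55.1 and 66.3 CPM for WT and at 55.4, 52.0 and 54.8 CPM in KO. Only KO replicate 1 reached above the lowest WT library, WT replicate 2. The fitted change was −0.33 (SE 0.15, adjusted p = 0.27, edgeR), and −0.18 (SE 0.09, adjusted p = 0.249) without WT replicate 1.

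Igf2r (ENSMUSG00000023830, chromosome 17, 12682406 to 12769664, minus strand) stood at 166, 111 and 135 CPM in the WT libraries and at 157, 144 and 179 CPM in KO. It was the only member whose highest library was not WT replicate 1, and its change was 0.22 (SE 0.16, adjusted p = 0.483, edgeR). Airn, the antisense transcript that silences the paternal Igf2r copy, was far less abundant, at 6.83 to 12.8 CPM in WT against 7.49 to 9.36 CPM in KO. Per kilobase of exon, the ratio of Igf2r to Igf1r was 3.63, 3.61 and 3.68 in WT, so the high WT replicate 1 did not differ in it, and 5.12, 5.00 and 5.88 in KO. The ratio was chosen after the values were seen and has no test.

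**Figure D3:**
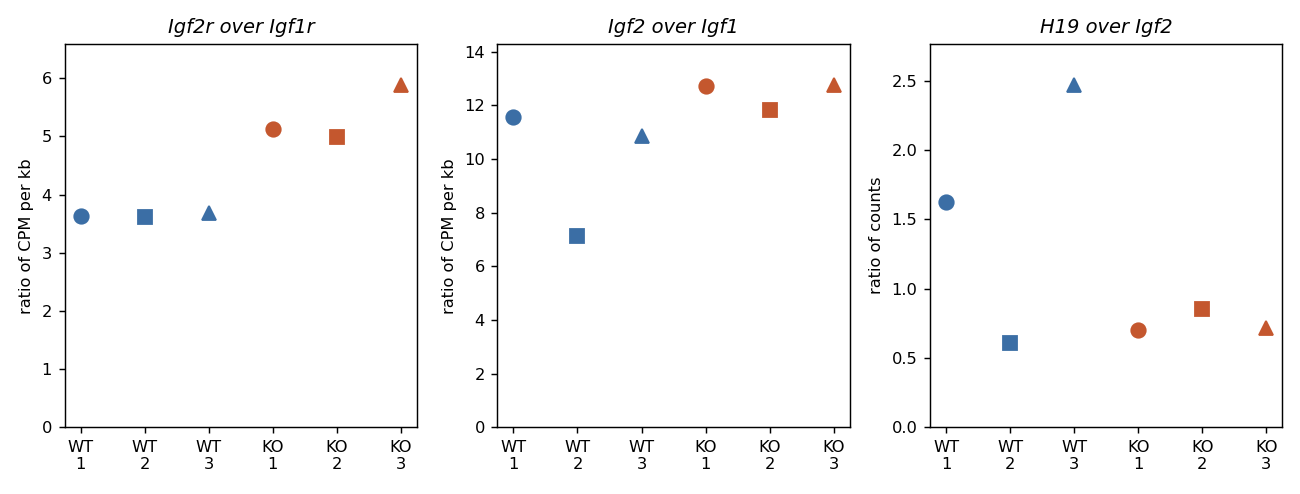
Ratios within each library (vertical axes, from 0): Igf2r over Igf1r and Igf2 over Igf1 in CPM per kilobase of exon, and H19 over Igf2 in counts. The Igf2r to Igf1r ratio is 3.61 to 3.68 in WT and 5.00 to 5.88 in KO, and the H19 to Igf2 ratio varies most among the WT libraries.

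Igfbp6 was the member with the largest difference. IGFBP6 binds IGF2 with a marked preference over IGF1 and is known mainly as an inhibitor of IGF2 action. Igfbp6 (ENSMUSG00000023046, chromosome 15, 102144362 to 102149511, plus strand) held 568, 365 and 469 counts in WT and 224, 260 and 207 counts in KO. Its level was 31.7, 19.03 and 23.8 CPM for WT and 9.75, 11.3 and 11.2 CPM in KO, so every KO library lay below every WT library. The means were 24.9 ± 6.41 CPM for WT and 10.8 ± 0.876 CPM for KO (SD, n = 3 each). The log2 fold change was −1.21 (SE 0.20).

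The edgeR adjusted p of Igfbp6 was 0.063, just outside the threshold, and the gene ranked 190 of 19687 by p. Igfbp6 passed the test, lower in KO, with DESeq2 (adjusted p = 1.06e-05), and with edgeR without WT replicate 1 (change −1.01, adjusted p = 0.0166) or without WT replicate 2 (−1.37, adjusted p = 0.0265). Without WT replicate 3 or any KO library the adjusted p was 0.164 to 0.365, in fits that called 0 genes in all. Its change lay between −1.37 and −1.01 under all 15 alternatives. Among libraries with Xist reads, Igfbp6 stood at 31.7 and 19.03 CPM in the WT libraries and 11.3 and 11.2 CPM in KO, and in the others at 23.8 and 9.75 CPM. With a term for Xist reads the change was −1.21 (adjusted p = 0.157, edgeR), in a fit that called 0 genes.

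The levels of Igfbp6 moved with some marker sums. The pericyte and smooth muscle sum was 1346, 712 and 799 CPM in WT replicates 1 to 3 and 664, 664 and 685 CPM in KO, lower in every KO library and in the same order as Igfbp6 within WT. Of its 10 genes, 9 had a fitted change below 0 and 1 above, and the groups did not overlap for 5. Over all genes, 51% lay below 0 and 27.7% did not overlap. Schwann cell genes summed to 4464 to 8458 CPM in WT against 3252 to 3675 CPM in KO, and the otic fibrocyte sum was also lower in every KO library. Of the 8 otic fibrocyte genes, 7 had a fitted change below 0 and 1 above, where 51% of all genes lay below 0. The groups did not overlap for 4, against 27.7% of all genes. The gene with the change above 0 was among these 4, higher in KO. Within WT both of these sums were lowest in WT replicate 1, where Igfbp6 was highest. The chondrocyte sum was 10442 to 11219 CPM for WT and 6390 to 7209 CPM in KO. Their part in the Igfbp6 difference was not tested.

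Igfbp3 encodes the main carrier of IGF in serum, where it forms a ternary complex with the acid-labile subunit, the product of Igfals. Igfbp3 (ENSMUSG00000020427, chromosome 11, 7206086 to 7213923, minus strand) stood at 138, 69.3 and 80.4 CPM in the WT libraries and at 62.8, 63.1 and 65.1 CPM in KO. All KO libraries were lower than all WT libraries, but the gap to WT replicate 2 was small. The pericyte and smooth muscle sum ranked the 6 libraries in the same order as Igfbp3, and its part in the difference was not tested. The log2 fold change was −0.59 (SE 0.25, adjusted p = 0.253, edgeR), and it was −0.25 (SE 0.08, adjusted p = 0.106, edgeR) without WT replicate 1. Igfals itself stood at 3.66 ± 0.617 CPM in WT against 4.43 ± 0.765 CPM in KO (SD, n = 3 each). Igfbp1, whose gene lies 3.5 kb from Igfbp3 on chromosome 11 and is mainly a liver gene, held 0 counts in all 6 libraries.

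Igfbp2, which carries an RGD integrin-binding motif, had the highest fitted change. The gene (ENSMUSG00000039323, chromosome 1, 72824503 to 72852474, plus strand) stood at 252, 151 and 147 CPM for WT and at 230.0, 199 and 230.0 CPM in KO. The KO libraries lay above WT replicates 2 and 3 and below WT replicate 1. The change was 0.26 (SE 0.22, adjusted p = 0.541, edgeR) with all libraries. It was 0.55 (SE 0.09, adjusted p = 0.0203, edgeR) without WT replicate 1, and 0.14 or 0.12 without WT replicate 2 or 3.

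Igfbp5, an abundant binding protein of bone matrix, ends 5.5 kb from the end of Igfbp2 on the opposite strand (ENSMUSG00000026185, chromosome 1, 72857932 to 72874884). It stood at 1367, 1174 and 1352 CPM in the WT libraries and at 1067, 1063 and 1278 CPM in KO. It was the member with the smallest spread within WT (coefficient of variation 8.28%), and the only member whose SD was larger in KO than in WT. KO replicate 3 overlapped the WT range. The change was −0.19 (SE 0.11, adjusted p = 0.396, edgeR), and −0.17 without WT replicate 1, so this neighbour of Igfbp2 had a fitted change of the opposite sign. Osteoblast markers summed to 39745 to 49148 CPM in WT against 80039 to 89700 CPM in KO, and their part in the Igfbp5 values was not tested.

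Igfbp4, whose product is the substrate of the protease PAPP-A (Pappa), stood at 1254, 765 and 628 CPM for WT and at 788, 747 and 829 CPM in KO (ENSMUSG00000017493, chromosome 11, 99041244 to 99054392, plus strand). The KO libraries lay within the WT range. The change was −0.16 (SE 0.25, adjusted p = 0.747, edgeR) and turned to 0.17 (SE 0.10, adjusted p = 0.298, edgeR) without WT replicate 1. Pappa stood at 16.1 ± 2.49 CPM in the WT libraries and 18.9 ± 0.897 CPM in KO. Its inhibitors, the stanniocalcins Stc1 and Stc2, stood at 6.74 ± 3.34 and 6.95 ± 3.14 CPM in WT against 4.54 ± 0.748 and 5.45 ± 0.265 CPM in KO (SD, n = 3 each).

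Igfbp7, a low-affinity IGF binder found in vessel walls, stood at 191, 119 and 106 CPM for WT and at 111, 117 and 105 CPM in KO (ENSMUSG00000036256, chromosome 5, 77349240 to 77408041, minus strand). WT replicates 2 and 3 and the KO libraries covered the same narrow range. Its change was −0.32 (SE 0.22, adjusted p = 0.446, edgeR) and −0.03 without WT replicate 1. The endothelial and pericyte sums were also highest in that library, and their part in the Igfbp7 values was not tested. The exons of Igfbp7 overlap Polr2b on the opposite strand over 7.0%, and whether counting used strand is unknown, so its reads may be shared.

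**Figure D4:**
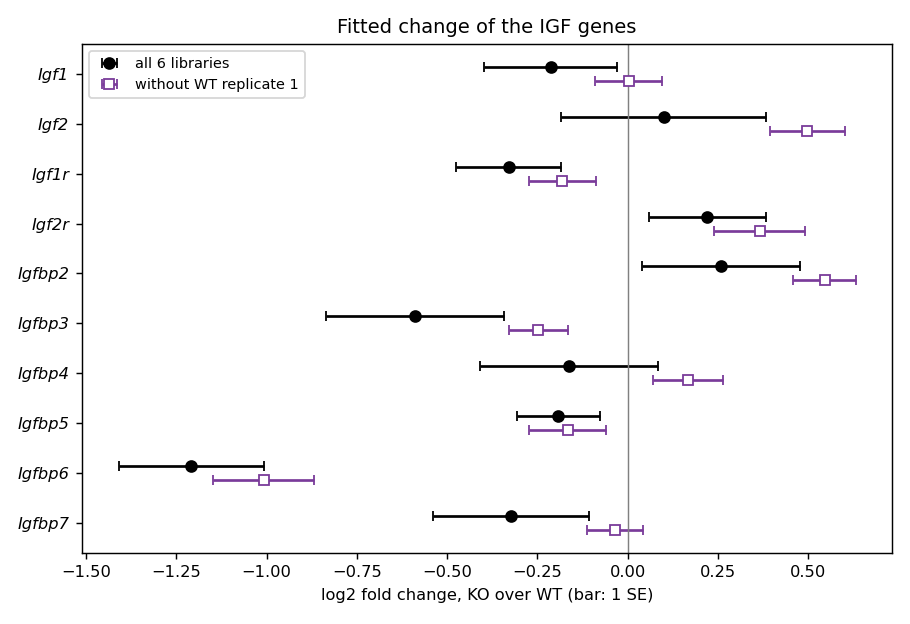
Fitted log2 fold change of each IGF gene, KO over WT (horizontal axis, bar of 1 SE), with all 6 libraries (filled) and without WT replicate 1 (open). Igfbp6 lies at −1.21 and −1.01, and Igf2 and Igfbp2 move from 0.10 and 0.26 to 0.50 and 0.55.

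Levels of different genes were compared per kilobase of exon. Igf2 came first, at 300 ± 131 CPM per kb in WT and 321 ± 13.6 in KO (SD, n = 3 each), with the reservation that its reads are shared with Gm49394. Igfbp5 followed at 216 ± 17.9 and 189 ± 20.5, then Igfbp4 at 200 ± 74.5 and 179 ± 9.29 CPM per kb. The library ranges of Igf2, Igfbp5 and Igfbp4 overlapped from each to the next. Igfbp2 (99.4 ± 32.3 and 119 ± 9.69) and Igfbp7 (115 ± 37.6 and 91.8 ± 4.79) overlapped each other and lay below Igfbp4 within every library.

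A lower tier followed, with Igf1 at 30.0 ± 8.03 CPM per kb in WT and 25.9 ± 0.607 in KO, Igfbp3 at 30.6 ± 11.8 and 20.3 ± 0.403, and Igfbp6 at 22.4 ± 5.77 and 9.67 ± 0.787. Igf2r stood at 14.7 ± 2.98 in WT and 17.2 ± 1.88 in KO, so that it ranked below Igfbp6 in WT and above it in KO. Igf1r was the lowest, at 4.05 ± 0.816 and 3.22 ± 0.108 CPM per kb, below Igf2r in every library. With the longest transcript in place of all exons, 6 of the 10 genes had the same place in the order.

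As shares of the 6 binding protein transcripts, summed per kilobase, Igfbp4 and Igfbp5 together made up 58.2% to 63.1% in every library. Igfbp2 made up 15.6%, 13.9% and 13.7% in WT and 20.7%, 18.5% and 19.4% in KO. The share of Igfbp6 was 3.25%, 2.91% and 3.68% in WT and 1.46%, 1.75% and 1.57% in KO. That of Igfbp3 was 3.76% to 5.01% in WT and 3.23% to 3.47% in KO. These 3 shares did not overlap between the groups, and those of Igfbp4, Igfbp5 and Igfbp7 did. In CPM the groups did not overlap for 27.7% of all genes, and Igfbp2 did overlap there. The shares of a library add up to a fixed total, so they depend on each other. A share removes what all binding proteins of a library have in common, such as the high sum of 879 CPM per kb in WT replicate 1 against 581 to 643 in the other libraries. No test was made of shares.

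**Figure D5:**
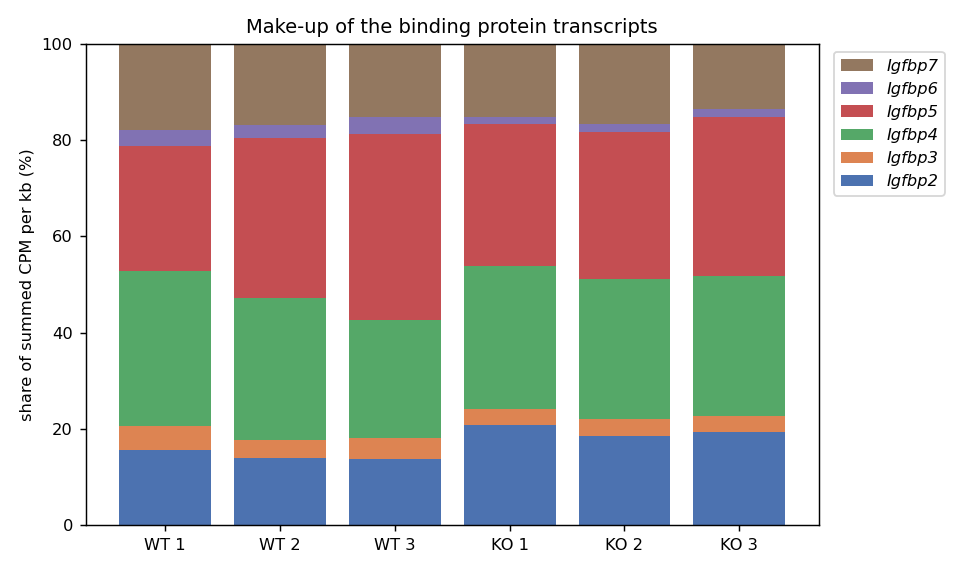
Share of each of the 6 binding proteins in their summed CPM per kilobase (vertical axis, percent) in each library. Igfbp2 takes 13.7% to 15.6% in WT and 18.5% to 20.7% in KO, while Igfbp6 takes 2.91% to 3.68% and 1.46% to 1.75%.

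The wider pathway was read from 51 genes in 5 lists, of which 46 were tested. With edgeR 0 passed the threshold, where 0.396% of all genes did, and the median change was −0.01. At an unadjusted p under 0.05 there were 7 (4 higher and 3 lower), where 19.6% of all genes passed. The groups did not overlap for 13 of the 46, against 27.7% of all genes. DESeq2 called 1, the adaptor Shc1, where 9.03% of its genes passed, and limma-voom 0. Without WT replicate 1, edgeR called 4 higher (Shc1, Grb10, Htra1 and Htra3) and 2 lower, among them Grb14. These are 6 of 46 genes, where 9.06% of all genes passed, and Htra3 and Grb14 were named after their values were seen.

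Shc1, an adaptor that links the IGF1 receptor to RAS signalling, stood at 123, 129 and 121 CPM in the WT libraries and at 165, 161 and 179 CPM in KO (change 0.44, SE 0.08, adjusted p = 0.0752, edgeR). Its groups did not overlap, as for 27.7% of all genes, and WT replicate 1 did not stand out. Grb10, an imprinted inhibitor of the receptor, stood at 381, 246 and 289 CPM in WT, and at 360, 378 and 396 CPM in KO, with a change of 0.31 (SE 0.16) that was 0.49 without WT replicate 1. Of the insulin receptor substrates, Irs2 stood at 39.6 ± 15.9 CPM for WT and 24.7 ± 1.53 CPM in KO, with 57.3 CPM in WT replicate 1.

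Of the 18 tested genes of the PI3K, AKT and FOXO branch, 0 passed with edgeR, DESeq2 or limma-voom. An unadjusted p under 0.05 with edgeR was found for 3, against 19.6% of all genes. The kinase Akt1 stood at 246 ± 44.0 CPM in the WT libraries and 240 ± 7.77 CPM in KO, and the PI3K regulatory subunit Pik3r1 at 157 ± 7.19 and 158 ± 9.87 CPM.

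Among 10 tested genes of other IGF-binding and IGF-releasing proteins, 0 passed with edgeR, DESeq2 or limma-voom. With edgeR 0 had an unadjusted p under 0.05, against 19.6% of all genes. Ctsd, a lysosomal protease, stood at 647 ± 33.2 CPM in WT against 675 ± 16.6 CPM in KO. Htra1, a secreted serine protease that cleaves binding proteins, stood at 262 ± 80.8 and 290 ± 9.08 CPM, and Htra3 at 66.6 ± 17.8 and 74.0 ± 1.87 CPM. Without WT replicate 1 their changes were 0.41 (adjusted p = 0.034, edgeR) for Htra1 and 0.38 (adjusted p = 0.0201) for Htra3.

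The 3 IGF2 mRNA-binding proteins and 7 genes of the growth hormone axis also had 0 calls with edgeR, DESeq2 or limma-voom. At an unadjusted p under 0.05 with edgeR there were 0 and 2, where 19.6% of all genes passed. Igf2bp2 stood at 30.0 ± 4.20 CPM for WT and 27.2 ± 0.263 CPM in KO, and Igf2bp3 at 19.6 ± 2.66 and 20.96 ± 0.543 CPM. Jak2, the kinase of the growth hormone receptor, stood at 90.3 ± 10.6 and 102 ± 8.36 CPM. Socs2, a feedback inhibitor of that receptor, had nearly the same level in all libraries, 69.4 to 73.5 CPM in the WT libraries and 70.3 to 71.4 CPM in KO. The 2 with an unadjusted p under 0.05 were Cish and Socs3, which also encode inhibitors of cytokine receptor signalling. Cish stood at 25.7, 11.6 and 15.1 CPM in WT replicates 1 to 3 and at 9.40, 10.2 and 10.4 CPM in KO, a change of −0.80 (SE 0.29, adjusted p = 0.204, edgeR) that was −0.43 without WT replicate 1. Socs3 stood at 17.4, 22.99 and 19.02 CPM in WT and at 33.1, 28.8 and 23.5 CPM in KO, with a change of 0.52 (SE 0.17, adjusted p = 0.175, edgeR). The groups overlapped for neither gene, as they did not for 27.7% of all genes. The receptor gene Ghr stood at 69.2 ± 14.98 and 62.5 ± 2.93 CPM (SD, n = 3 each).

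The genes most like each member were sought among 12594 named genes of at least 5 CPM, by the Pearson correlation of log2 CPM over the 6 libraries, which share their depth, scaling and group structure. They are given as a description with no p. For Igfbp6 they were Spred2 (0.996), an inhibitor of RAS signalling, and Slc25a42 (0.993), and for Igfbp3 Plk3 (0.999) and Pdzrn3 (0.998). For Igf2 they were Rnf144a (0.994) and Slc25a24 (0.991), for Igfbp2 Prkd3 (0.996) and Grwd1 (0.996), and for Igf2r Rbms2 (0.993) and Slit3 (0.991). For Igf1 they were Pex13 and Purb (0.995 each), and for Igf1r Zfp628 and Pex14 (0.996 each). Phactr2 (0.992) was among those of Igfbp4. For Igfbp5 they were Slc9a8 (0.988) and Acaca (0.981), and for Igfbp7 Naxd and Abcd3 (0.997 each). No other member of the IGF system was among the 2 closest genes of any member.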

How the data were processed

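Inner ear RNA of 3 WT and 3 Pou3f4y/- libraries was sequenced. Per the labels' protocols, RNA was extracted with TRIzol and made into libraries with a stranded TruSeq mRNA kit. The submitters' processing notes list HTSeq, HISAT2, Cufflinks and Trimmomatic, with no version, and mm10. The counting annotation and its strand setting were not given in the sources used here. Values in the deposited table are raw read counts per gene, with no normalisation. Of 55401 gene identifiers, 55141 were in GENCODE M21, and all 10 members had its coordinates.

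Genes were filtered with filterByExpr (minimum count 10), scaled by TMM and tested with the quasi-likelihood test of edgeR 4.0.16 (R 4.3.3), genotype alone in the design. P-values were adjusted over all genes by Benjamini-Hochberg (threshold 0.05). Levels per kilobase divide CPM by the union of GENCODE M21 exons. Log2 CPM for likeness used a prior count of 2. The test was checked on simulated data in which each gene had the same dispersion in both groups. That check does not cover the unequal spread of the WT and KO libraries seen here.

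Alternatives were RLE and upper-quartile scaling, other filters, DESeq2 1.42.0, limma-voom (limma 3.58.1), a replicate block, an Xist term (over 100 counts), leaving out mitochondrial, haemoglobin and muscle genes or Gm49394, and leaving out each library. Those for the pathway lists were added after seeing the data. The members and lists were chosen with earlier results of these data known. Named genes were all members, overlapping models, the called members of each list (up to 4, or else the 2 most abundant), and the 2 genes most like each member. Genes named beyond this were chosen after their values were seen: Grb14, Irs2, Htra3, Igfals, Pappa, Stc1, Stc2, Igfbp1, Ghr, Cish, Socs3, Ins2, Airn, Col3a1, Col1a1, Col1a2 and, below, Cdkn1c, Zim1, Mest, Peg3, Plagl1 and Dcn. Amino acid sequences were not used here, and some genes that the rule or a count would name are not reported here.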

Additional observations from a re-analysis of the deposited data

How the results depend on the processing

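The number of genes called over the whole table was 78. It was 1603 with DESeq2, 1 with the replicate number as a block (replicate block), 0 with Xist presence as a term, and 0 to 1814 when 1 library was left out. Of the 10 members 0 were called, 1 with DESeq2, and 0 to 3 when 1 library was left out. Of the pathway genes 0 were called, 1 with DESeq2, and 0 to 6 when 1 library was left out. With the block, 0 members passed. Samples with the same replicate number did not deviate together (correlations of −0.131, −0.295 and −0.191), so the numbers are not taken to pair the libraries. Of 91 values of single members under alternatives other than leaving out a library, 90 kept their direction and their side of the threshold, the other being Igfbp6 with DESeq2. As 0 members were called in the main fit, the side could hardly change with the block or the Xist term. The value without Gm49394 rests on the same Igf2 counts. Of 60 values without 1 library, 4 turned in direction and 4 became calls. The ranges without 1 library were −0.37 to 0.0034 for Igf1, −0.12 to 0.50 for Igf2 and −0.36 to 0.17 for Igfbp4. With the longest transcript as gene length, 6 of 10 genes had the same rank of level per length, and the mean share of Igfbp4 and Igfbp5 was 57.9%, against 60.8% with all exons; this follows from the lengths alone. All members held at least 207 counts in every library.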

Other observations

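Igf2 and Igf2r belong to the imprinted genes, of which only 1 parental copy is expressed, and 14 other imprinted or growth-linked genes were read beside them. With edgeR 0 of the 14 passed the threshold, with 3 at an unadjusted p under 0.05, where 19.6% of all genes passed. DESeq2 called 1 (Cdkn1c, lower), where 9.03% of its genes passed, and limma-voom 0. The groups did not overlap for 4 of the 14, against 27.7% of all genes. Of the 14 fitted changes 13 lay below 0, with a median of −0.40, against 51% of all genes below 0. WT replicate 1 was the highest of all 6 libraries for 12 of the 14, against 28.8% of all genes. Cdkn1c, an inhibitor of the cell cycle, stood at 227, 149 and 197 CPM in WT and at 133, 128 and 125 CPM in KO, with no overlap (change −0.57, SE 0.15, adjusted p = 0.146, edgeR). Gnas, which encodes a G protein subunit, stood at 2035, 1487 and 1517 CPM in WT and at 1443, 1412 and 1336 CPM in KO.

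Several imprinted genes had the high value of WT replicate 1 seen for the IGF members. Mest stood at 420, 152 and 180 CPM in WT replicates 1 to 3 and 211 to 218 CPM in KO. Peg3 stood at 400, 159 and 216 CPM in WT and 209 to 231 CPM in KO, and Plagl1 at 205, 57.5 and 89.7 CPM in WT and 74.1 to 75.9 CPM in KO. Zim1 stood at 77.8, 15.4 and 35.0 CPM in WT and 17.2 to 18.1 CPM in KO. Without WT replicate 1, edgeR called 1 of the 14, the proteoglycan Dcn (also on the fibroblast list), higher in KO (0.56, SE 0.08, adjusted p = 0.0186). In that fit 9.06% of all genes passed, and 8 of the 14 changes lay below 0. The part of the pericyte, fibroblast and endothelial marker sums, which were also highest in that library, was not tested.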
